A study of Drosophila melanogaster with 6 samples.

Results

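DNA that took up label early in S phase was set against DNA labelled in the middle of S phase in Kc cells, a cell line from Drosophila melanogaster embryos. The comparison used the 2 Early S and the 2 Mid S libraries, which are 4 of 6 libraries in all. It covered the windows with a value above 0 in at least 1 of the 6 libraries, which were 53434 of 55900 windows. The labels describe the line as WT, with the genotype se/e, as female and as derived at a late embryonic stage. Growing cells had been given 50 µg/ml of BrdU, a thymidine analogue that replicating DNA takes up, for 1 hour. They were then fixed in ethanol, stained with propidium iodide and sorted by DNA content into an early (Early S), a middle (Mid S) and a late (Late S) fraction. Labelled DNA was recovered with an antibody to BrdU and sequenced. The groups were Early S (n = 2), Mid S (n = 2) and, beside them, Late S (n = 2), and all 3 shared the line, the genotype, the pulse and the sort.

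Chromosomes replicate in a set order, because groups of origins fire at different times in S phase and forks then travel outward from them until they meet forks from neighbouring groups. In flies, as in other animals, early replication is known mainly from gene-rich, transcribed chromatin, and pericentric heterochromatin is known to replicate late. DNA between early origins is copied later, from a later origin or by a travelling fork.

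These are 1 line and sorted populations. Fractions sorted on DNA content overlap at their borders, and fewer labelled cells cannot be told apart from less label per cell. The labels do not tell whether replicates were separate cultures, and the p-values cover no more than the spread among these libraries, which could be technical alone. The libraries held 2936097 and 1892986 reads in Early S, 2801800 and 1981524 in Mid S, while the Late S libraries held 1856781 and 1384200. Values are RPKM, reads per unit of window length and of library size, in windows of 10 kb that start every 2.5 kb and therefore share reads. The median window held 98 to 218 reads. On YHet, the scaffold of the Y chromosome, which a female line should lack, 35 windows that share no reads held 0 to 3 reads in all per library.

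As deposited, more windows were higher in Mid S than in Early S. By limma, with a Benjamini-Hochberg adjusted p under 0.05, 63.9% of tested windows differed, with the higher value in Early S for 20.5% (10938) and in Mid S for 43.5% (23221). Differences are Early S minus Mid S on the scale of log2(RPKM + 0.0341), so a positive one is higher in Early S. The median difference over all windows was -0.36. The split of calls depended on the scale: Early S held 32.0% of the calls as deposited, 49.1% after each library was centred on its median and 42.9% after quantile normalization. Centring raised the Early S calls to 16646, and quantile normalization left 13034 Mid S calls. The median difference was -0.39 and -0.32 without Early S replicate 1 or 2, and -0.35 and -0.36 without Mid S replicate 1 or 2. Such fits leave 1 library in a fraction and fewer degrees of freedom, so their counts of calls say nothing about a single library.

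Windows called in each direction had different histories across the 3 fractions. Windows higher in Early S had medians of 14.6 and 15.4 RPKM in Early S, 7.96 and 8.02 in Mid S, with 3.555 and 4.48 in Late S. Their label fell in Mid S and was lower again in Late S. Windows higher in Mid S had medians of 3.47 and 3.17 RPKM in Early S, 7.35 and 7.37 in Mid S, with 11.1 and 10.3 in Late S. As a group these windows had their highest medians in Late S. Uncalled windows had 8.17 and 7.98 RPKM in Early S, 8.39 and 8.125 in Mid S, with 5.12 and 5.78 in Late S.

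Label was more unevenly spread in Early S than in Mid S. On X, 2L, 2R, 3L, 3R and 4, the 90th percentile of windows was 7.92 and 8.91 times the 10th in the Early S libraries, and 2.86 and 2.64 times in the Mid S libraries. In Late S the ratio was 5.73 and 4.18. The 10% of windows with the highest values held 23.8% and 25.04% of the reads in Early S, 16.9% and 16.8% in Mid S, with 21.5% and 19.9% in Late S. The Early S share was higher than the Mid S share by 7.52 ± 0.91 percentage points (SDs of both groups combined, n = 2 each), and the libraries did not overlap. With 2 libraries against 2 an exact two-sided permutation test cannot go below 0.33, so no p is given for this or any other single value.

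The grain of the pattern differed as well. Over the 47785 tested windows of these arms, values of windows 10 kb apart correlated with r of 0.816 and 0.825 in Early S, and 0.610 and 0.565 in Mid S. At 40 kb these were 0.620 and 0.625 in Early S, and 0.413 and 0.381 in Mid S. At 160 kb the order was turned, with 0.177 and 0.175 in Early S and 0.204 and 0.191 in Mid S, and at 320 kb r was 0.101 and 0.102 in Early S and 0.141 and 0.133 in Mid S. These r are across windows of 1 library, which are not independent, and they carry the library's counting noise. Mid S was thus lower than Early S at 10 and 40 kb and slightly higher at 160 and 320 kb.

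Chromosome 4 led the order of sequences. Arms and scaffolds with 20 or more tested windows were compared by their median log2 level, set against the library's median over all windows. On chromosome 4, the small chromosome rich in heterochromatin proteins, this level was 0.71 and 0.70 in Early S, and -0.14 and 0.11 in Mid S. The difference was 0.73 ± 0.18 (SDs of both groups combined, n = 2 each), and 45.9% of its windows were called higher in Early S, against 11.1% higher in Mid S. The libraries did not overlap, and most of the spread came from the Mid S libraries.

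The long arms lay close to each other. The difference was 0.24 ± 0.02 on 2R, 0.17 ± 0.03 on X, 0.10 ± 0.01 on 3L, 0.04 ± 0.01 on 3R and -0.03 ± 0.01 on 2L. Early S and Mid S libraries did not overlap on any of these arms. 2R and 2L were the ends of this order, with 24.8% and 19.95% of windows higher in Early S and 36.9% and 49.7% higher in Mid S. On 3R the sign was not stable: it was -0.04 with the mean over windows and -0.06 without the windows of lowest value. Without centring, only chromosome 4 stayed above 0, at 0.41, and 2R, X, 3L and 3R moved to -0.08, -0.14, -0.22 and -0.28.

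The medians of all pericentric scaffolds were highest in Late S, and they were higher in Mid S than in Early S. The difference was -0.55 ± 0.20 on 3LHet, -0.63 ± 0.13 on 2RHet, -0.79 ± 0.44 on 3RHet, -0.85 ± 0.35 on 2LHet and -0.89 ± 0.37 on XHet, with no overlap of the libraries. The sizes were uncertain: 3RHet was at -0.36 with the libraries numbered 1 alone and -1.23 with those numbered 2, 2LHet was at -0.33 with 10 times the pseudocount and -0.49 ± 0.56 without the windows of lowest value, and 2RHet was at -0.29 without them. On XHet, 76.9% of 65 windows were higher in Mid S and none higher in Early S, and on 3RHet 48.7% of 898 windows were higher in Mid S and none in Early S. Levels there were low: the median window of 3RHet had 0.443 and 0.317 RPKM in Early S, 0.714 and 1.01 in Mid S, with 3.10 and 3.32 in Late S. The median window of XHet had 1.26 and 1.43 RPKM in Early S, 2.68 and 3.68 in Mid S, with 5.65 and 7.59 in Late S. On U, the collection of unplaced sequence, the calls put Early S above Mid S in 0.0389% of windows and below it in 21.6%. No run of it was higher in Early S, against 34 (1217.5 kb in all) in Mid S. The difference of its medians was -0.02 ± 0.29, with overlapping libraries, and -0.93 ± 0.29 without the windows of lowest value. Its median window had 0.0681 and 0.0528 RPKM in Early S, and 0.0714 and 0.101 in Mid S, below the 0.102 to 0.217 RPKM that 3 reads give in a window.

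**Figure D1:**
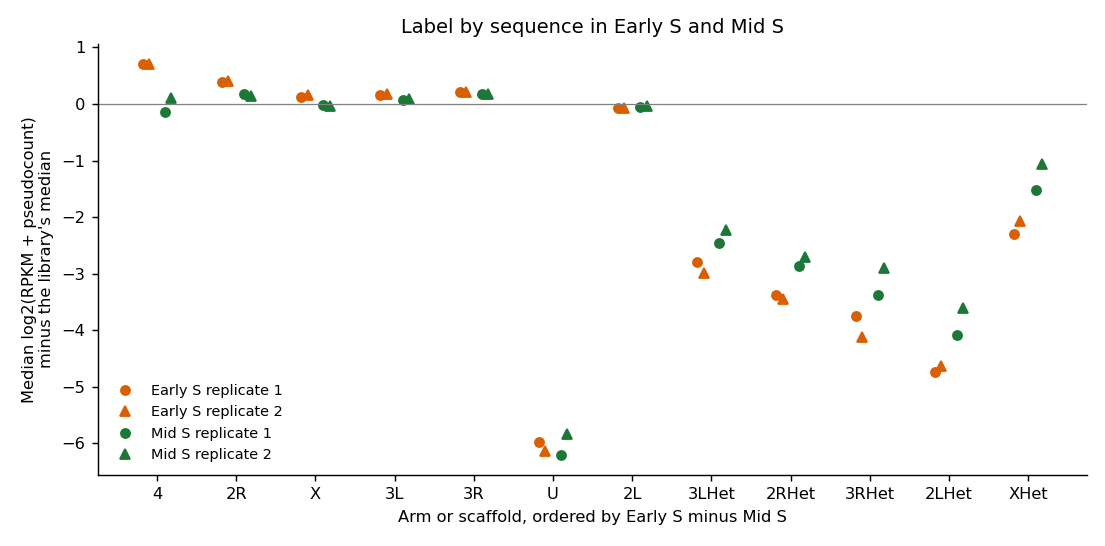
Median log2(RPKM + 0.0341) of each arm or scaffold minus the library's median over all tested windows (vertical axis, log2 scale), ordered by Early S minus Mid S from left to right, with 1 point for each Early S and Mid S library. Chromosome 4 stands at 0.71 and 0.70 in Early S against -0.14 and 0.11 in Mid S, and the libraries overlap only on U.

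Within the scaffolds 2 exceptions stood out, singled out after their values were seen. On 3LHet, 4 runs of windows (172.5 kb in all) were higher in Early S, and on 2RHet 2 runs (90 kb in all). The longest, 3LHet from 2205001 to 2285000, had 13.2 and 13.9 RPKM in Early S, 7.72 and 7.95 in Mid S, with 3.18 and 4.47 in Late S. The run on 3LHet from 582501 to 622500 had 17.2 and 17.97 RPKM in Early S, 7.23 and 8.72 in Mid S, with 3.43 and 4.46 in Late S. The scaffold's median window had 0.886 and 0.740 RPKM in Early S, so these runs lay far above it. By the same rule 27 runs of 3LHet (1110 kb in all) were higher in Mid S.

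Called windows were gathered into blocks on X, 2L, 2R, 3L, 3R and 4. A block was a run of windows called in the same direction, each differing by 0.5 or more on the log2 scale. Runs were joined over gaps of at most 2 windows and had to span at least 5 windows, gaps included. Over all sequences 18.2% of windows met this rule in the Early S direction and 40.9% in the Mid S direction. There were 354 blocks higher in Early S, covering 26.5 Mb or 22.0% of these arms, and 471 blocks higher in Mid S, covering 53.9 Mb or 44.7%. Blocks higher in Early S had a median of 60 kb (quartiles 37.5 and 97.5), against 82.5 kb (quartiles 45 and 146) for those higher in Mid S. This order depended on the scale: with centring both medians were 70 kb, and after quantile normalization they were 53.75 kb for Early S blocks and 35 kb for Mid S blocks. Only 12 of the Early S blocks passed 200 kb, the longest at 260 kb, against 69 of the Mid S blocks, the longest at 627.5 kb. With centring Early S blocks covered 40.7 Mb, and after quantile normalization Mid S blocks covered 33.7 Mb. The median gap from an Early S block to the nearest Mid S block was 30 kb (quartiles 17.5 and 77.5), and 231 of 354 (65.3%) had one within 50 kb. Mid S blocks covered 44.7% of these arms, and the share for stretches placed without regard to Early S blocks was not measured. So the 65.3% is no result on adjacency.

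Chromosome 4 carried 9 Early S blocks over 47.1% of its length and 3 Mid S blocks over 9.39%. Among the long arms, the Early S share ran between 17.6% on 3R and 24.4% on X, and the Mid S share between 36.7% on 2R and 49.9% on 2L. Blocks are built from the calls, so the calls inside them are no separate evidence.

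Single blocks are named on the arms other than 2R. The block with the largest mean difference in the Early S direction lay on X from 3207501 to 3387500. It had 11.9 and 14.8 RPKM in Early S, 3.12 and 3.34 in Mid S, with 1.10 and 1.71 in Late S. The mean log2 difference was 2.15, and all 69 windows were called. Label in this 180 kb stretch was thus already low in Mid S, and the Early S libraries lay far above both others.

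The next in size were 3L from 11157501 to 11390000 (2.01), X from 5770001 to 5855000 (1.85), 3L from 692501 to 855000 (1.64) and 3R from 11765001 to 11867500 (1.64). On 3L from 11157501 to 11390000 the level was 17.9 and 20.5 RPKM in Early S, 4.71 and 5.24 in Mid S, with 1.72 and 2.43 in Late S. On X from 5770001 to 5855000 it was 17.5 and 21.3 RPKM in Early S, 5.17 and 5.36 in Mid S, with 2.24 and 2.80 in Late S. These blocks were chosen for Early S above Mid S, so that part of the order is no separate result. The Late S libraries, which are not part of that contrast, lay below both Mid S libraries in each of these blocks.

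The longest Early S block lay on 3L from 3310001 to 3570000. It had 20.9 and 23.6 RPKM in Early S, 7.87 and 7.82 in Mid S, and the mean log2 difference was 1.59. The Late S libraries had 3.69 and 4.04 RPKM there. On 3L from 8612501 to 8870000, the level was 13.3 and 15.3 RPKM in Early S, 4.61 and 4.99 in Mid S, with 1.76 and 2.28 in Late S. Another long block of the same arm ran from 10625001 to 10877500, with a difference of 1.48, and 97 of its 98 windows were called. The highest level among the longest blocks, on 3R from 18957501 to 19187500, was 25.8 and 28.7 RPKM in Early S, 8.98 and 9.84 in Mid S, with 4.27 and 5.57 in Late S. In all of them Early S replicate 2 was above Early S replicate 1, a difference of 2 to 3 RPKM.

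In the Mid S direction the longest block was on 2L from 17487501 to 18115000. Its level was 2.43 and 2.04 RPKM in Early S, 5.28 and 5.97 in Mid S, with 16.5 and 15.9 in Late S, and all 248 windows were called. The mean log2 difference was -1.39. Label here was above the Early S level in Mid S, as the choice of blocks required, but far below the Late S level. The same order held on 3R from 1620001 to 2162500, where the level was 2.77 and 2.58 RPKM in Early S, 6.10 and 6.93 in Mid S, with 15.2 and 14.6 in Late S. It held on X from 9607501 to 10120000, where it was 3.10 and 2.77 RPKM in Early S, 6.403 and 6.45 in Mid S, with 13.2 and 12.1 in Late S. The remaining pair lay on 2L, from 11290001 to 11802500 (-1.42) and from 14532501 to 15035000 (-1.31). After quantile normalization all 5 differences shrank, to between -0.58 on 3R and -0.44 on X and the longest block.

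As deposited, the largest differences in the Mid S direction came from short blocks near the centromeric ends of X and 3L, where Early S and Mid S levels were low. For most of these blocks the ranking rests on the pseudocount. With 10 times the pseudocount the 3 blocks on X were at -1.07, -0.68 and -1.001, and 3L from 24332501 was at -1.12. The longest blocks on 2L and 3R were at -1.26 and -1.27. Only 3L from 24095001, at -1.31, stayed beyond these. On X from 21602501 to 21625000 the level was 0.0681 and 0.0704 RPKM in Early S, below what 3 reads give in a window. In Mid S it was 0.327 and 0.866 RPKM, and no fold is given. The same held for X from 21757501 to 21782500, with 0 and 0.0528 RPKM in Early S and 0.219 and 0.296 in Mid S. On X from 21785001 to 21827500 the level was 0.345 and 0.423 RPKM in Early S, 1.45 and 1.251 in Mid S, with 3.59 and 3.81 in Late S. On 3L from 24332501 to 24402500 it was 0.463 and 0.425 RPKM in Early S, 1.29 and 1.57 in Mid S, with 5.66 and 5.30 in Late S. On 3L from 24095001 to 24132500 it was 1.09 and 0.630 RPKM in Early S, 2.78 and 2.67 in Mid S, with 7.28 and 7.32 in Late S.

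**Figure D2:**
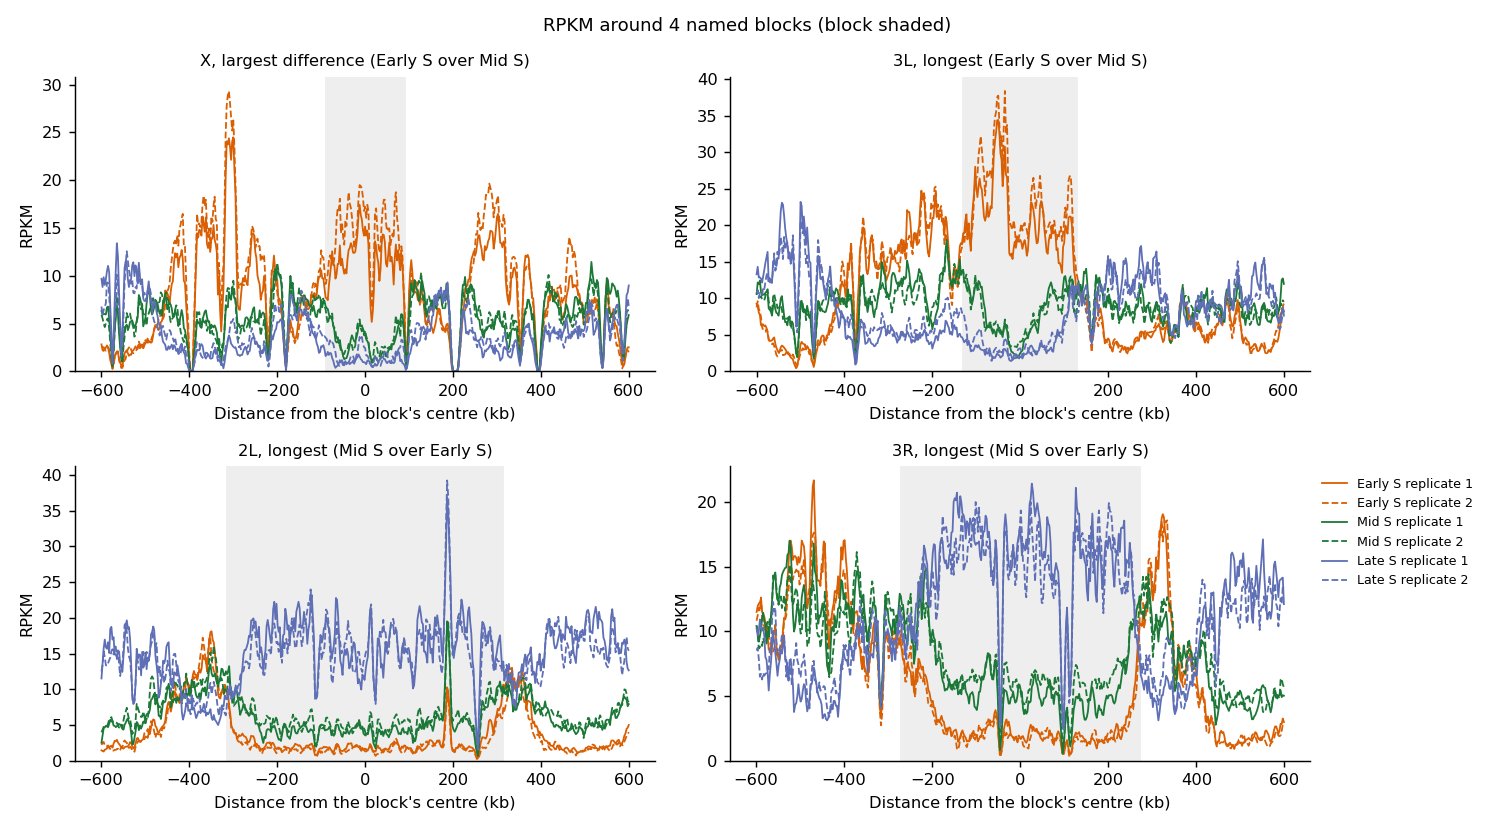
RPKM of each library (vertical axis) against distance from the centre of a block in kb (horizontal axis), for 4 blocks shaded in grey: on X the largest Early S difference, on 3L the longest Early S block, and on 2L and 3R the longest Mid S blocks. Inside the Early S blocks the Mid S lines dip towards the centre, and inside the Mid S blocks they run mostly flat between the Early S and Late S lines, with 1 narrow peak on 2L in all libraries.

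Bins of 1 Mb showed where the share of windows higher in Early S was largest and smallest on X, 2L, 3L and 3R. On 2L, 65.25% of windows between 8 and 9 Mb were higher in Early S, while between 15 and 16 Mb none of 374 were and 91.2% were higher in Mid S. In the bin from 15 to 16 Mb the mean was 3.59 and 3.18 RPKM in Early S, 6.61 and 7.11 in Mid S, with 13.6 and 13.4 in Late S. On X the bins were 13 to 14 Mb (51.0% higher in Early S) and 18 to 19 Mb (5.50%). On 3L they were 0 to 1 Mb (59.7%) and 24 to 25 Mb (none of 212, with 67.0% higher in Mid S). On 3R they were 19 to 20 Mb (53.8%) and 24 to 25 Mb (2.26%, with 52.4% higher in Mid S). The bin from 3 to 4 Mb of 3R was level with the lowest, at 2.27%, and 73.8% of its windows were higher in Mid S. In each of these low bins both Late S libraries had a higher mean than both Mid S libraries. The gap was smallest on X from 18 to 19 Mb, with 10.5 and 10.0 RPKM in Late S against 9.65 and 9.24 in Mid S.

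To see whether early domains narrowed or spread, domains were taken from Early S replicate 1 alone and measured in the other libraries. A domain was a run of windows at or above 1.5 times that library's median over the arms. Runs were joined over gaps of at most 2 windows and had to span at least 5 windows, gaps included. There were 552 domains, covering 39.1 Mb or 32.5% of the arms, with a median of 52.5 kb. Since Early S replicate 1 chose them, widths, levels and counts of domains compare Early S replicate 2 with Mid S, and where Early S replicate 1 enters it is said.

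In most early domains the window highest in Early S replicate 1 was below the domain threshold in Mid S. This window was at or above 1.5 times the library's own median in 543 of 552 domains in Early S replicate 2. In each Mid S library it was so in 166, and in both of them in 127 domains (23.0%). In the Late S libraries the count was 32 and 51. The median width above this level was therefore 62.5 kb in Early S replicate 2 and 0 kb in both Mid S libraries, and the mean width was 84.8 kb, against 10.0 and 10.3 kb. A domain with this window below the level got a width of 0 kb, also where another of its windows passed the level. The highest window that a Mid S library itself had in a domain was, in the median, 1.53 times the library's median in both. So a width of 0 kb does not mean that a domain held no high label in Mid S. The share of domains at or above the level at the chosen window in both Mid S libraries differed by arm. It was 32.1% on 2R, 26.7% on 2L, 25% on 3R, 17.1% on X and 15.6% on 3L, and on chromosome 4 it was 1 of 12. Runs chosen in Mid S replicate 1 instead, of which there were 281, also had a smaller median width in Mid S, at 25 kb in Mid S replicate 2, against 50 kb in Early S (mean of the medians of both libraries).

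Width measured so shrinks when a domain merely gets lower, so a measure that follows each domain's height was used as well. The midpoint width is the length of the run, around a domain's highest window, above the midpoint between that window's value and the library's median. Its median was 45.0 kb in Early S replicate 2 (quartiles 32.5 and 65), and 27.5 kb in both Mid S libraries (quartiles 20 and 42.5, and 17.5 and 45). It could not be measured in 47 and 44 domains of the Mid S libraries, where no window of the domain passed the median. Of 495 domains measured in both Mid S libraries, 303 (61.2%) were narrower in both than in Early S replicate 2, 72 (14.5%) were wider in both and 120 were neither. Thinning all libraries to equal reads left the difference at -17.5 kb. The highest window was 2.47 times the library's median in Early S replicate 2, and 1.53 times in both Mid S libraries, and the part of this lower contrast in the narrowing was not tested.

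The median was lower in Mid S in each class of domain length. For domains under 40 kb the median midpoint width was 32.5 kb in Early S replicate 2, and 25 and 22.5 kb in Mid S. For domains of 40 to 80 kb it was 47.5 kb in Early S replicate 2, and 27.5 and 27.5 kb in Mid S, and for domains of 80 kb or more it was 70.0 kb, against 32.5 and 35.0 kb. Each of X, 2L, 2R, 3L, 3R and 4 showed the same direction, from 38.75 kb against 20 and 17.5 kb on chromosome 4 to 47.5 kb against 32.5 and 30.0 kb on 3R.

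**Figure D3:**
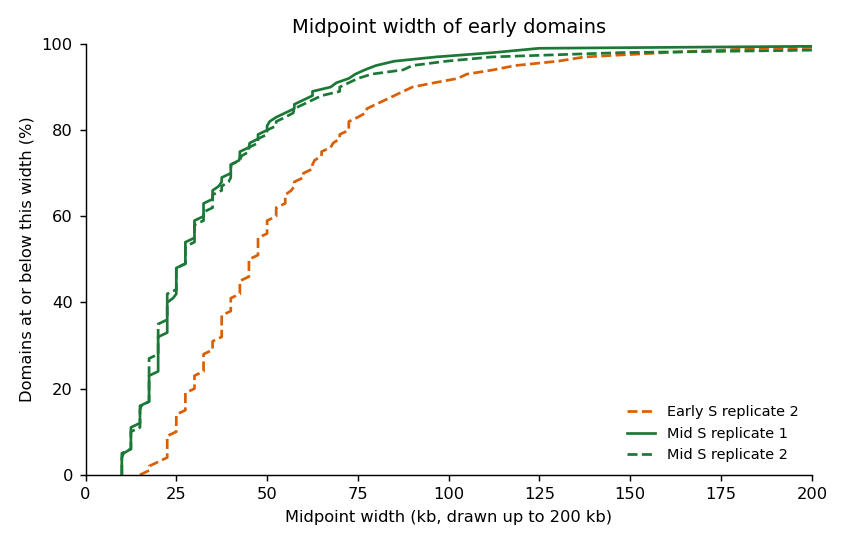
Share of domains (vertical axis, %) whose midpoint width is at or below the value on the horizontal axis (kb), for Early S replicate 2 and both Mid S libraries. The Mid S curves nearly coincide and lie left of the Early S curve, with medians of 27.5 kb against 45.0 kb.

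The runs of high label that Mid S formed on its own were shorter than those of Early S. At 125% of each library's median, Early S replicates had 601 and 596 runs covering 51.2 and 52.1 Mb with a median of 62.5 kb each, and Mid S had 702 and 723 runs covering 33.0 and 32.75 Mb with medians of 35.0 and 32.5 kb. At 1.5 times, there were 552 and 554 runs in Early S and 281 and 292 in Mid S. At 2 times, there were 371 and 405 in Early S and 30 in each Mid S library.

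Single domains were ranked by midpoint width with both Early S libraries, so Early S replicate 1, which chose them, enters their values. The largest gain in Mid S lay on 3R from 452501 to 500000, where the midpoint width was 50.0 and 65.0 kb in Early S, and 287.5 and 292.5 kb in Mid S. Its mean level was 12.4 and 11.1 RPKM in Early S, and 13.1 and 13.0 in Mid S. Its log2 level in Mid S was 0.66 and 0.68 inside, and 0.52 and 0.55 in the flanks from 20 to 60 kb outside. Flank distances ran from the centre of a domain's end window to the centre of the flank window. The next were 3L from 1840001 to 1882500 (42.5 and 57.5 kb in Early S, 147.5 and 155.0 kb in Mid S), X from 14722501 to 14742500 (20 and 25 kb in Early S, 112.5 and 107.5 kb in Mid S) and 3L from 15607501 to 15637500 (30.0 and 32.5 kb in Early S, 122.5 and 112.5 kb in Mid S). On 3R from 542501 to 577500, the 2 Mid S libraries differed, at 170 and 40 kb, against 32.5 and 30.0 kb in Early S. At the X domain the level was 12.1 and 11.51 RPKM in Early S, 14.0 and 13.4 in Mid S, with 13.8 and 13.1 in Late S. At both domains of 3L the flanks stood above the inside in Mid S, so the wide run there takes in label from outside the domain. On 3L from 1840001 to 1882500 the log2 level in Mid S was 0.03 and 0.01 inside, and 0.68 and 0.56 in the flanks. On 3L from 15607501 to 15637500 it was 0.23 and 0.42 inside, and 0.51 and 0.65 in the flanks. By the width above 1.5 times the median, both domains of 3L went the other way. From 1840001 it was 62.5 kb in Early S replicate 2 and 0 kb in both Mid S libraries. From 15607501 it was 165 kb against 0 kb in both. On 3R from 452501 it was 47.5 kb against 0 and 107.5 kb. The X domain (22.5 kb against 110 and 107.5 kb) and 3R from 542501 (30.0 kb against 170 and 52.5 kb) were wider in Mid S by it as well.

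The domains most narrowed were short stretches whose midpoint run in Early S reached far past the domain. On 3R from 19905001 to 19925000, the width was 247.5 and 252.5 kb in Early S, and 27.5 and 30.0 kb in Mid S. On 3R from 26645001 to 26677500 it was 200 and 132.5 kb in Early S, and 12.5 and 17.5 kb in Mid S. On 2L from 8142501 to 8177500 it was 127.5 and 197.5 kb in Early S and 12.5 kb in both Mid S libraries. The others, X from 19472501 to 19492500 and 3R from 20442501 to 20467500, had differences of -147.5 and -115.0 kb between the means of the groups. In both, the width above 1.5 times the median was 0 kb in Early S replicate 2. On X from 19472501 label was not lower in Mid S, with 11.1 and 9.37 RPKM in Early S, and 12.1 and 12.6 in Mid S. On 3R from 20442501 it was lower, with 11.2 and 10.3 RPKM in Early S, and 7.73 and 7.49 in Mid S.

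Mid S label passed above Early S label a short way outside the domain edges. An edge here is the centre of a domain's first or last window, and distances run to window centres. The end windows themselves fell in the bin of 0 to 10 kb outside. Averaged by distance from the nearest edge, with each library centred on its median, Early S replicate 2 exceeded the Mid S mean by 0.89 on the log2 scale inside the domains, up to 50 kb from the edge. The difference passed 0 at 18.6 kb outside the edge and was -0.73 from 50 to 100 kb outside. By arm the passage lay at 20.02 kb on X, 22.0 on 2L, 17.2 on 2R, 23.0 on 3L and 13.3 on 3R. Without centring it lay at 11.7 kb over all arms. At 0 to 10 kb, with the end windows included, the mean was 0.40 in Early S replicate 2, -0.11 and -0.10 in Mid S, with -0.78 and -0.62 in Late S. Both Mid S and both Late S libraries dipped there below their levels on either side, so the edges chosen in Early S replicate 1 lay where the other fractions were low as well.

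Beyond that dip the mean was lower with distance in Mid S as well as in Early S, but by less. At 20 to 30 kb outside the mean was -0.14 in Early S replicate 2, 0.04 in both Mid S libraries, and -0.18 and -0.15 in Late S. At 50 to 60 kb it was -0.78 in Early S replicate 2, -0.11 and -0.12 in Mid S, with 0.24 and 0.13 in Late S. At 110 to 120 kb it was -1.08 in Early S replicate 2, -0.39 and -0.33 in Mid S, with 0.46 and 0.31 in Late S. Mid S was thus highest of the fractions only in a zone near 20 to 40 kb from the edge.

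**Figure D4:**
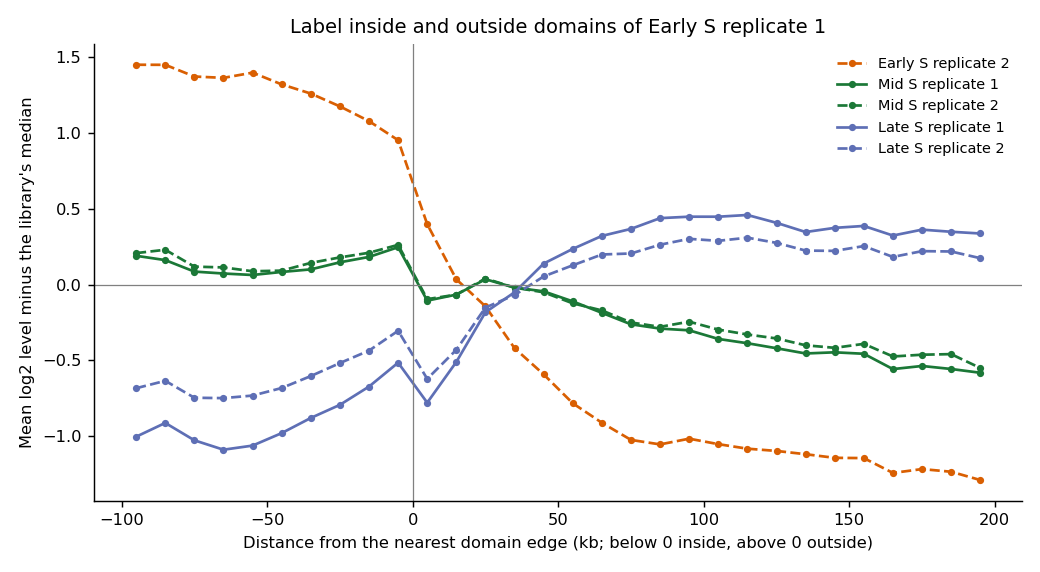
Mean log2 level minus the library's median (vertical axis) in bins of 10 kb of distance from the nearest domain edge (horizontal axis, kb, negative inside), for the 5 libraries that did not choose the domains. Early S replicate 2 passes below both Mid S libraries near 18.6 kb outside, and Late S passes above them further out. An edge is the centre of a domain's end window, and the end windows fall in the first bin outside.

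Counted by domain, the same pattern held for most. Inside, Early S replicate 2 was above both Mid S libraries in 532 of 552 domains (96.4%) and below both in 13. Domains were chosen for high Early S label, so this inside count is partly set by the choice. Levels are relative to each library's median, so a high level inside and a low one outside are not separate results. In the flanks from 20 to 60 kb outside, both Mid S libraries were above Early S replicate 2 in 353 of 531 domains (66.5%), while Early S replicate 2 was above both in 144. The median level inside was 0.98 in Early S replicate 2, 0.22 and 0.23 in Mid S, with -0.55 and -0.36 in Late S. In the flanks it was -0.20 in Early S replicate 2, 0.11 and 0.09 in Mid S, and -0.03 in each Late S library. So Mid S label differed little between the inside of an early domain and its flanks, whereas Early S label differed strongly.

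The middle of long domains was lower in Mid S than their margins. Domains of 80 kb or more, of which there were 162, were cut into 3 equal parts, a split chosen after the edge profile was seen. In Early S replicate 2 the median level was 1.31 in the central part and 1.09 in the outer parts, and the central part was higher in 138 domains. In the Mid S libraries it was 0.11 and 0.15 in the central part, and 0.23 and 0.23 in the outer parts, and the central part was higher in 47 and 43. Both Mid S libraries had a lower central part in 106 of these domains and a higher one in 34. The Late S libraries had -0.94 and -0.66 in the central part, and -0.70 and -0.46 in the outer parts. The median of central minus outer parts was 0.21 in Early S replicate 2, and -0.12 and -0.11 in Mid S.

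Sorting windows by distance placed the windows that peak in Mid S. The end windows of a domain counted as inside here. Inside the domains the mean RPKM was highest in Early S in 91.0% of windows, in Mid S in 8.69% and in Late S in 0.301%. At 0 to 20 kb outside the shares were 48.2% for Early S, 46.5% for Mid S and 5.28% for Late S. At 20 to 50 kb they were 14.2% for Early S, 52.1% for Mid S and 33.8% for Late S. From 50 kb on Late S led, with 6.57% for Early S, 22.8% for Mid S and 70.6% for Late S at 50 to 100 kb, and 9.09%, 13.5% and 77.5% in the same order beyond 200 kb.

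Windows that peak in Mid S were thus most frequent within 50 kb of an early domain, against 23.2% over all arms. These shares compare RPKM as deposited, unlike the centred levels by distance above. Over all arms the median window had 8.24 and 8.13 RPKM in Mid S. It had 7.22 and 6.97 in Early S and 7.27 and 7.51 in Late S, so this scale favours Mid S. Shares with centred libraries were not computed. Early S replicate 1 had chosen the domains, and its part in the Early S mean raises the inside share for Early S. With Early S replicate 2 alone and 1 library of each other fraction, the Mid S share was 9.91% to 11.7% inside, 43.8% to 47.0% at 0 to 20 kb, 49.1% to 52.5% at 20 to 50 kb, 20.6% to 26.6% at 50 to 100 kb and 12.8% to 16.3% beyond 200 kb.

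**Figure D5:**
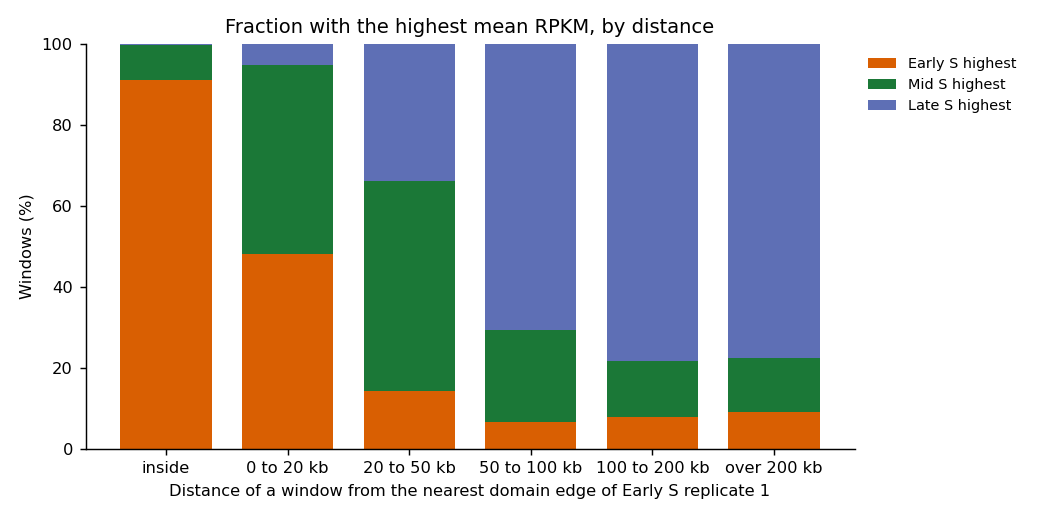
Share of windows (vertical axis, %) whose mean RPKM over 2 libraries is highest in Early S, Mid S or Late S (stacked colours), by distance from the nearest edge of a domain chosen in Early S replicate 1. The Mid S share is 46.5% at 0 to 20 kb and 52.1% at 20 to 50 kb, and 8.69% inside.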

How the data were processed

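Per the file headers and the labels' protocols, the authors deposited 1 value per window and library in RPKM, for 55900 overlapping windows on 14 sequences. Not given in the sources used here are the aligner, genome build, read filters and any input correction. Sequence names are of the type of Release 5, coordinates are counted from 1, and no gene positions were used. All values corresponded to whole reads (tolerance 0.02 reads), so reads per library are exact, but a count of 0 allows up to 3 reads and such limits cover counting error only. The fraction of Mid S replicate 1 was taken from its title. The combined files of both replicates were not used.

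From the deposited RPKM, log2(RPKM + 0.0341) was computed, with the lowest value above 0 as pseudocount, which understates folds of low windows. limma 3.58.1 (lmFit, eBayes with trend; R 4.3.3) fitted 3 fraction means to all 6 libraries, with degrees of freedom of 3 (residual) and 10.7 (prior). Two-sided p-values had Benjamini-Hochberg adjustment over 53434 windows, and the code was tested on simulated data. Same-numbered Early S and Mid S libraries did not deviate together (r = -0.03 over windows), so replicate numbers did not enter the fit. Regions named are the arms and scaffolds that have 20 tested windows or more, the 5 longest blocks and the 5 of largest difference in each direction, the 5 most widened and 5 most narrowed domains, and the highest and lowest 1 Mb bin per arm, on X, 2L, 3L, 3R and 4. 2R is only in totals. Members, rules and lists were chosen with earlier results of these data known. Tables and plots were made with matplotlib 3.10.9, pandas 2.3.3 and NumPy 2.4.6 under Python 3.11.15.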

Additional observations from a re-analysis of the deposited data

How the results depend on the processing

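Windows higher in Early S numbered 16646 with libraries centred on their medians and 6422 to 12152 with 1 library left out. Windows higher in Mid S numbered 13034 after quantile normalization. Early S blocks covered 11.3 Mb at a log2 difference of at least 1 and 40.7 Mb with centring. Mid S blocks covered 33.4 Mb at a difference of at least 1 and 33.7 Mb after quantile normalization. With the replicate block there were 11387 and 23617 windows and 26.8 and 54.0 Mb of blocks, so no count moved past 1.5 times. Replicate deviations of same-numbered libraries correlated with r of -0.03 for Early S and Mid S, 0.02 for Early S and Late S and 0.21 for Mid S and Late S, so not every pair passed 0.1.

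Without centring, 1 sequence was higher in Early S (5 with it): 2R, 3L, 3R and X turned to -0.0770, -0.22, -0.28 and -0.14, and 3R also turned to -0.0413 with the mean over windows and -0.0555 without the lowest windows. The width above threshold differed by -60 kb at 125% of the median, -50 kb at 2 times, -52.5 kb relative to the mean, -51.25 kb with domains chosen in Early S replicate 2 and -25 kb with domains chosen in Mid S replicate 1. The midpoint width differed by -15.0 kb and -21.25 kb under these last choices. With domains from Early S replicate 2 the edge passage lay at 16.2 kb and the inside difference was 0.80. Without centring the passage lay at 11.7 kb, the inside difference was 0.66 and the outside one -0.96. The share of reads differed by 4.66 points for the top 5% of windows and 12.5 for the top 25%. Among 57 values of the 19 named blocks under other scalings or pseudocount, none changed sign and 35 moved by more than the spread between replicates. The cause of these shifts was not tested. Depth limits U, where medians in Early S and Mid S are below 3 reads, and the blocks at the centromeric end of X.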
